A study of Mus musculus with 20 samples.

Results

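Chromatin-associated RNA of cardiomyocyte cultures that lack Mettl3 was compared with that of wild-type cultures. One library of each genotype was sequenced, so 2 of the 20 samples of the series carry the comparison. Genes were taken when they reached at least 1 RPKM (reads per kilobase of gene, scaled to library size) in either library, and a gene missing from a file was set to 0. Of 21111 genes listed in either file, 5170 passed: 4462 protein-coding genes, 417 noncoding genes, 92 pseudogenes and 199 genes without a match in RefSeq. Protein-coding and noncoding genes were described apart. The measure was log2((KO RPKM + 1)/(WT RPKM + 1)), called the log2 ratio here, and a gene was called higher or lower at 1 or -1, a 2-fold difference on that scale. Where a plain ratio of KO to WT RPKM is given, its 95% Clopper-Pearson interval covers counting error only.

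Both cultures came from mouse embryonic stem cells (ESCs) of the strain C57BL/6, taken through embryoid bodies in serum medium with ascorbic acid and replated on gelatin to form cardiomyocytes. The control carries the genotype WT and the other culture the genotype Mettl3-KO. ESC libraries of the same genotypes, 1 each, are given for reference only. Which part of Mettl3 was removed, how many clones or cultures lie behind a library and the day of harvest are not stated in the labels. With 1 library per genotype no difference has a replicate check, and no p-value is given. The RNA is from bulk cultures, so fewer cells of a type and less RNA per cell cannot be told apart.

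METTL3 is the catalytic subunit of the nuclear complex that writes N6-methyladenosine (m6A) on RNA during transcription. RNA held on chromatin is rich in nascent transcripts, in retained noncoding RNA and in the precursors of small RNAs, so it lies closer to transcription than total RNA does. Embryoid bodies form derivatives of all germ layers, and a culture made from them can hold fibroblasts, endothelium, early blood cells and endoderm beside heart muscle.

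The main contrasts among small RNA precursors fell on 2 microRNA clusters of pluripotent cells that share a seed, the bases 2 to 8 through which a microRNA pairs with its targets. The Mir302 and Mir367 cluster (chr3:127545228-127545807, mm10, within the gene Larp7) belongs to the primed and early differentiating state, and the Mir290 to Mir295 cluster (chr7:3218626-3220841) to naive ESCs. Mature sequences were taken from RefSeq (GRCm38.p6, the assembly behind mm10), where 74 of the 79 microRNA genes past the filter had one. They are written 5′ to 3′ with the seed in capitals, and they show that members of both clusters carry the same seed.
miR-302b-3p: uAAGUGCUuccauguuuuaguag
miR-302d-3p: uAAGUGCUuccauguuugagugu
miR-302c-3p: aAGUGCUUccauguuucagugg
miR-367-3p: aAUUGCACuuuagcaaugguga
miR-291a-3p: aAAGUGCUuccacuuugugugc
miR-294-3p: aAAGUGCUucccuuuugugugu
miR-295-3p: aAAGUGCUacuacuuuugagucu
miR-290a-3p: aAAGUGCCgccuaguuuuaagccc
The seed AAGUGCU occurs in 5 mature microRNAs of the table, and all 5 are among those printed. The listed miR-302c-3p has the seed AGUGCUU, and miR-367-3p, of another family, AUUGCAC.

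On chromatin the 2 clusters went opposite ways. All 5 hairpins of the Mir302 and Mir367 cluster were at least 2-fold lower in the KO culture, against 15 of all 79 microRNA genes past the filter. Mir302a stood at 8.29 RPKM in wild-type ESCs, 7.22 in KO ESCs, 46.8 in the wild-type culture and 14.1 in the KO culture, and Mir367 at 5.72, unlisted, 47.6 and 17.0. Mir302b went from 41.3 to 14.9 RPKM and Mir302c from 38.5 to 6.41, while Mir302d was at 21.1 RPKM in the wild-type culture and was not listed in the KO culture. The cluster was thus raised in the wild-type culture over the ESCs and less so in the KO culture. Its hairpins held an estimated 408 reads in the wild-type and 113 in the KO culture, a ratio of 0.273 (0.2199 to 0.337). The unlisted Mir302d was counted as 0 in the KO culture.

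All 7 hairpins of the Mir290 to Mir295 cluster were higher in the KO culture, 3 of them at least 2-fold, against 8 of all 79 microRNA genes. Mir294 stood at 308 RPKM in wild-type ESCs, 299.6 in KO ESCs, 38.0 in the wild-type culture and 87.8 in the KO culture. Mir295 stood at 223, 150.1, 15.8 and 42.7 RPKM in the same order, and Mir292 at 49.8 and 103 RPKM in the 2 cultures. Both cultures thus lay far below both ESC libraries, and the KO culture lay between. Together the 7 hairpins held 610 estimated reads in the wild-type and 1181 in the KO culture, a ratio of 1.91 (1.73 to 2.11). The hairpins are short and lie within longer transcripts, so a value can include reads of the primary transcript or of an overlapping gene.

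**Figure D1:**
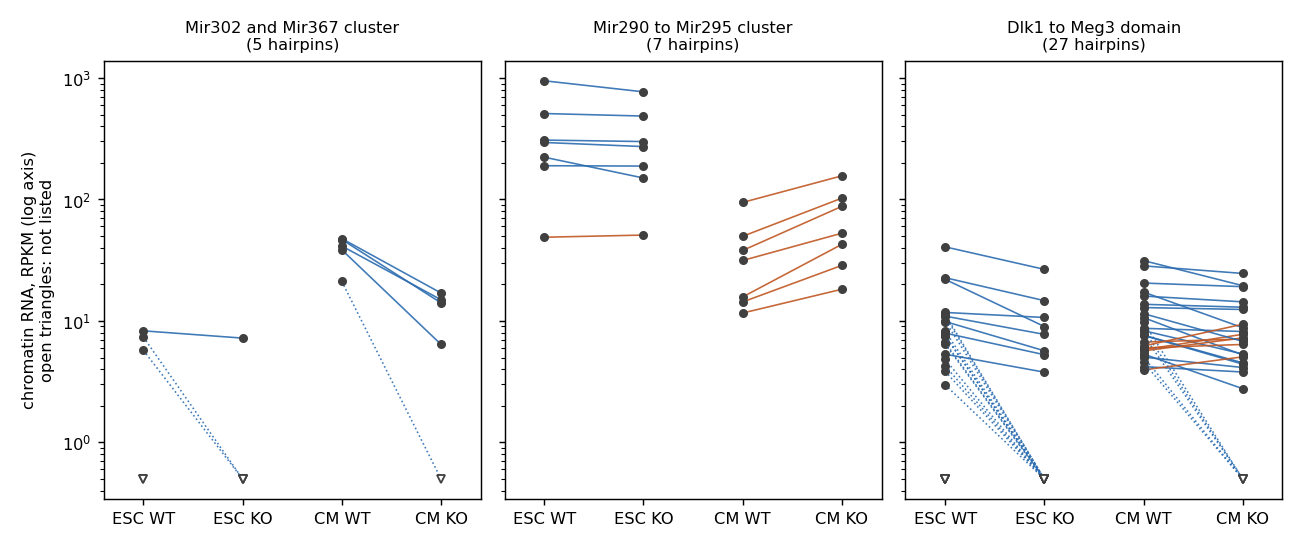
Chromatin RNA of the microRNA hairpins past the filter in 3 clusters, in RPKM on a log axis, for 1 library per genotype of ESCs and of cardiomyocyte cultures (CM); each point is a hairpin, lines join WT and KO of a cell type (orange higher, blue lower, dotted where a hairpin is unlisted in one of them), and open triangles mark hairpins that a file does not list. All 5 hairpins of the Mir302 and Mir367 cluster were lower and all 7 of the Mir290 to Mir295 cluster higher in CM KO than in CM WT.

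Other clusters moved less. The imprinted Dlk1 to Meg3 domain on chromosome 12 had 27 hairpins past the filter, of which 21 lay below 0. Of the 27, 5 were called lower, all unlisted in the KO culture, against 15 of all 79 microRNA genes. These 5 held 11 to 27 estimated reads in the wild-type culture. No hairpin of this domain was listed with under 10 estimated reads in any library, so unlisted need not mean absent. The 27 hairpins held 674 estimated reads in the wild-type and 488 in the KO culture, a ratio of 0.715 (0.635 to 0.804). In wild-type and KO ESCs they held 492 and 193. These sums count unlisted hairpins as 0, and the interval does not allow for that. The X-linked Mir322 to Mir351 cluster, which is switched on in mesoderm, held 195 and 318 estimated reads (ratio 1.61, 1.34 to 1.93). Within it Mir351 was at 11.3 and 34.2 RPKM and Mir322 at 32.9 and 51.1 RPKM. The X-linked Mir106a to Mir363 cluster, a paralog of the Mir17 cluster, had 1 of 6 hairpins called lower, with all 6 below 0, from Mir106a at -1.02 to Mir19b-2 at -0.02, and a ratio of 0.636 (0.435 to 0.923).

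Mettl3 itself stood at 1.73 RPKM in wild-type ESCs, 1.28 in KO ESCs, 1.18 in the wild-type culture and 1.07 in the KO culture, a ratio of 0.902 (0.790 to 1.03) between the cultures. The gene overlaps Tox4, and since the removed part is not given, this value does not check the labels. The 4 libraries listed 18428 to 19733 genes at an estimated 27.9 to 29.8 M reads. Sarcomere markers were present but low in the wild-type culture, where only 6 of 24 listed members reached 1 RPKM in either library.

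Few protein-coding genes differed by 2-fold. In the KO culture 26 of 4462 were lower (0.583%) and 12 were higher (0.269%). The lower side included 3 collagen genes, 3 sarcomere genes, the apolipoprotein gene Apob and several genes of myeloid cells and platelets. The higher side held the imprinted gene Peg10, a metallothionein, an embryonic globin, an unconventional myosin, 4 histone genes and a ribosomal protein gene. The median log2 ratio over all 4462 was 0.13, with 74.5% above 0, and 9 in 10 genes lay between -0.26 and 0.44. With the KO library scaled so that this median is 0, 29 genes were lower and 4 higher, so the share of higher calls depends on the scaling more than the share of lower ones. Levels of gene lists are therefore read against 0.13 below.

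The filter of 1 RPKM and the added 1 RPKM hide most low genes. Among 11994 protein-coding genes with at least 50 estimated reads in either library, and listed in both, a plain RPKM ratio put 667 at least 2-fold lower (5.56%) and 187 at least 2-fold higher (1.56%). This measure was added after the values were seen, and it is used below for lineages whose markers lie under 1 RPKM. Counts by the plain ratio below are to be read against these shares. Of the 4462 genes, 270 passed the filter in the wild-type library only and 741 in the KO library only. A gene that passed in 1 library only had to be higher there, so counts and medians over the members of a list that passed are descriptions and support no direction. Medians without the filter are given beside them where this bears on a list. Just inside the threshold lay Postn at -1.05 and, closer still, Zim1 (2.64 and 0.818 RPKM), and just outside it Lpl, a lipase, and Myl7, an atrial myosin light chain, both at -0.98. On the higher side Ipo7 lay at 1.00 and Hist1h3c at 1.01, with Naa38 and Bex1 just under at 0.99.

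**Figure D2:**
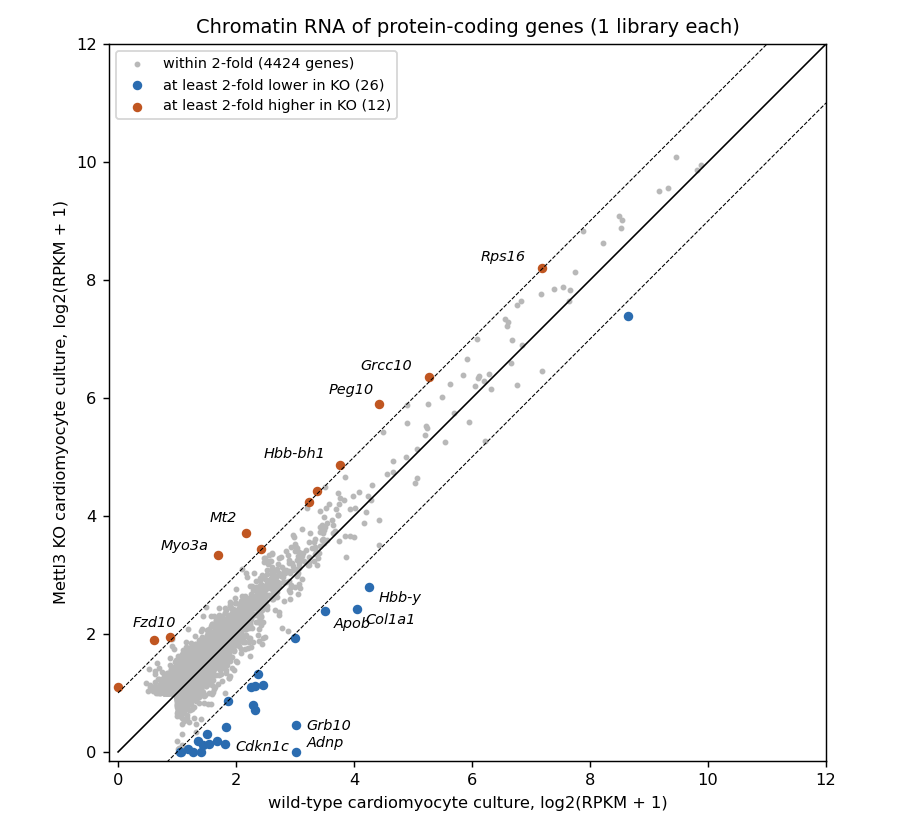
Protein-coding genes in the 2 cardiomyocyte cultures, each point 1 gene, as log2(RPKM + 1) in the wild-type (x axis) and KO library (y axis); the solid line marks equal values, the dashed lines a 2-fold difference, and genes with under 1 RPKM in both are left out. The 26 lower genes lie mostly at low to middle levels, and the 12 higher genes run from low levels up to Rps16.

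**Figure D3:**
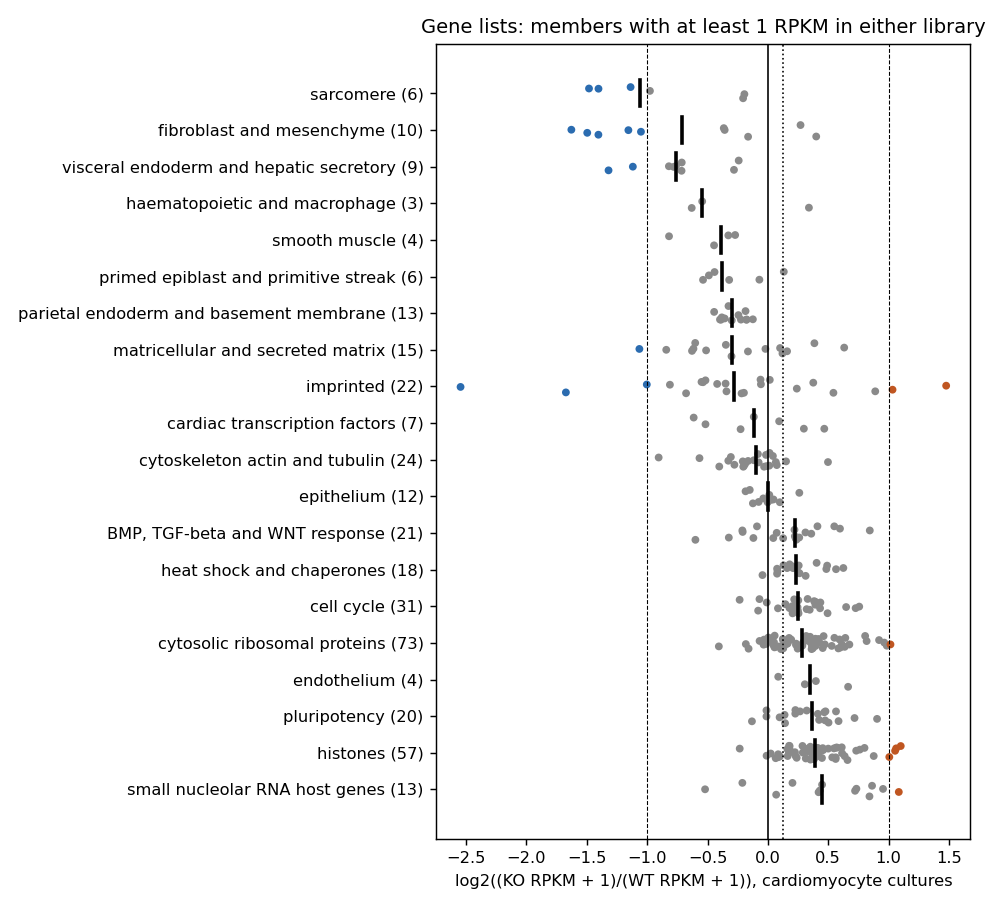
Log2 ratio of KO to WT RPKM (+1) for the members of 20 gene lists past the filter (number in brackets), each point 1 gene, black bars the list medians, the dotted line the median of all protein-coding genes (0.13) and dashed lines a 2-fold difference; blue and orange points are called lower and higher. Sarcomere, fibroblast and visceral endoderm lists lie to the left, and histones, pluripotency genes and hosts of small nucleolar RNAs to the right.

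Among heart muscle genes the sarcomere list held the lowest values. Of 6 sarcomere genes past the filter 3 were called lower (median -1.06), against 0.583% of all genes, but 4 of the 6 passed in the wild-type library only. Their median depends on the setting: it was -0.20 over the 2 members left by a filter on the mean of the 4 libraries, -0.19 over all 24 members without a filter, and -3.18 with a pseudocount of 0.1 RPKM. Ttn, the elastic giant protein of the sarcomere, was at 2.18 RPKM in the wild-type and 0.140 in the KO culture, Actc1, cardiac actin, at 1.90 and 0.0962, and Myh6, the alpha myosin heavy chain, at 1.27 and 0.0322. Among the 16 members with at least 50 estimated reads, 11 were lower by the plain ratio (median 0.193) and 0 higher. Of all genes with enough reads 5.56% were lower and 1.56% higher.

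None of 7 cardiac transcription factors past the filter was called, 3 lay above 0, and their median was -0.12. Gata4 was at 2.01 and 0.964 RPKM, Hand2 at 1.76 and 0.929, Tbx20 at 2.01 and 1.78 and Hand1 at 1.13 and 1.62. By the plain ratio 4 of 15 factors were lower and 0 higher (median 0.785), against 5.56% and 1.56% of all genes with enough reads. Of the lower-expressed factors, Tbx5 had a ratio of 0.283 (0.228 to 0.348) and Myocd, a coactivator of muscle genes, of 0.367 (0.329 to 0.409). Ion channels and calcium handling genes were lower by the plain ratio in 10 of 14 members (median 0.386), against 5.56% of all genes. The 4 that passed 1 RPKM, however, had a median log2 ratio of 0.09, or -0.08 after scaling. Slc8a1, the sodium-calcium exchanger, was at 1.86 and 0.233 RPKM, Ryr2, the calcium release channel, had a ratio of 0.374 (0.357 to 0.391) and Cacna1c, the L-type channel, of 0.289 (0.273 to 0.306). Atp2a2, the calcium pump that other cells also use, was at 3.65 and 3.91 RPKM.

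On the log2 ratio fibroblast matrix genes had more members called lower than any other list of protein-coding genes. Their share was not larger than that of the sarcomere list, with 3 of 6 called. By the plain ratio the sarcomere list had more lower members, 11 of 16. Of 10 members past the filter 5 were called lower and 0 higher, with a median of -0.71, against 0.583% and 0.269% of all genes. Of the 10, 3 passed in the wild-type and 1 in the KO library only, and without a filter the median over 23 members was -0.23. By the plain ratio 10 of 20 were lower and 0 higher, against 5.56% and 1.56% of all genes with enough reads. Col1a1 stood at 0.149 RPKM in wild-type ESCs, 0.174 in KO ESCs, 15.5 in the wild-type culture and 4.34 in the KO culture, a ratio of 0.280 (0.267 to 0.294) between the cultures. Col1a2, which pairs with it in type I collagen, was at 3.77 and 1.14 RPKM in the cultures, and Col3a1 at 3.89 and 0.734. The small proteoglycan Lum was at 2.54 and 0.340 RPKM and the matricellular gene Postn at 4.15 and 1.48. Both ESC libraries had under 0.2 RPKM of each of these 5 genes.

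The difference did not extend evenly over mesenchyme. The receptor Pdgfra was at 1.23 and 0.730 RPKM, Vim at 6.49 and 5.68, Fn1 at 9.12 and 11.2 and the transcription factor Twist1 at 0.586 and 1.09. Enzymes that modify and fold collagen had 0 of 7 called and a median of -0.05, or -0.18 after scaling. All 7 lay below the median of all genes, from Fkbp10 at 1.36 and 1.07 RPKM to P4hb, the highest and the only one above 0, at 7.26 and 7.61. Of 15 secreted matrix genes only Thbs1, an activator of TGF-beta, was called, at 7.01 and 2.83 RPKM. Ccn2, the connective tissue growth factor, was at 6.39 and 3.12. Basement membrane genes lay slightly below 0: 0 of 13 were called, 4 of the 13 passed in the wild-type library only, and their log2 ratios ran from -0.45 for Agrn to -0.12 for Nid2.

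Of the genes called lower, 4 are known from myeloid cells or platelets; they are on no list used here and were taken from the called genes. C3ar1, a complement receptor of myeloid cells, was at 1.73 and 0.0891 RPKM, and Pf4, a platelet and macrophage chemokine, at 3.98 and 0.636. Mpeg1, the macrophage perforin, at 1.64 RPKM, and Ppbp, the platelet basic protein, at 1.41 RPKM in the wild-type culture, were not listed in the KO culture. Summed over all its members the blood and macrophage list was at 8.50 RPKM in the wild-type and 4.48 in the KO culture. It had 3 members past the filter with none called (median -0.54). Of 14 with at least 50 estimated reads, however, 9 were lower by the plain ratio (median 0.241), against 5.56% of all genes. Adgre1, which encodes the F4/80 antigen, had a ratio of 0.0362 (0.0213 to 0.0579), Ptprc, the pan-leukocyte CD45, of 0.0612 (0.0399 to 0.0904), and Csf1r, the receptor that macrophages need to survive, of 0.0634 (0.0410 to 0.0944). By contrast Runx1, needed to form blood cells, had 0.910 (0.867 to 0.954), Cd34 1.05 (0.864 to 1.27), and Kit was at 0.808 and 1.29 RPKM. Cell-type lists include genes of other cells, and Cd44 (2.11 and 1.13 RPKM) is one that fibroblasts share.

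Interferon-stimulated genes were low in both cultures and lay on both sides. Only 4 passed 1 RPKM, with a median of 0.45 and 0 called, but of 15 with at least 50 estimated reads 6 were lower by the plain ratio and 1 was higher (median 0.570). Mx1 had a ratio of 0.0512 (0.0136 to 0.137) and Rsad2, viperin, of 0.122 (0.0736 to 0.192). The members past the filter were Bst2 and 3 Ifitm genes, which were also above 2 RPKM in both ESC libraries. Ifitm2 was at 4.93 and 8.47 RPKM. The Ifitm genes are near copies of each other, and reads could be split between them.

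Red cell genes split. The embryonic beta-like globin Hbb-y stood at 18.2 RPKM in the wild-type and 5.94 in the KO culture, a ratio of 0.327 (0.282 to 0.376). Its neighbour Hbb-bh1, the other embryonic beta-like globin, stood at 12.5 and 28.0 RPKM, a ratio of 2.23 (2.02 to 2.47). Both are on chromosome 7, at 103851754 to 103853207 and at 103841638 to 103843162, and they were under 0.1 RPKM in both ESC libraries. The embryonic alpha-like globin Hba-x was at 9.94 and 11.1 RPKM, and the whole erythroid list summed to 44.9 and 51.0 RPKM, so the beta-like pair differed more than the sum. Among genes under the filter, Alas2, the first enzyme of erythroid haem synthesis, had a ratio of 2.73 (2.08 to 3.57) and the factor Gata1 of 1.57 (0.997 to 2.58). Globin genes are similar in sequence, and the counting of reads shared between them is not stated in the labels.

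Endothelial genes lay above 0 in all 4 members past the filter, of which 2 passed in the KO library only, with a median of 0.35 and 0 called: Kdr, the VEGF receptor of the first vascular cells, was at 1.34 and 2.08 RPKM and Egfl7 at 1.47 and 2.91. Of 17 members with at least 50 estimated reads 0 were called in either direction (median ratio 1.25). Cdh5, the endothelial cadherin, had a ratio of 1.81 (1.64 to 2.01) and Pecam1 of 1.53 (1.37 to 1.71), and Emcn had the lowest ratio, 0.541 (0.429 to 0.677). Smooth muscle genes had 0 of 4 called, with a median of -0.39, 2 of the 4 passing in the wild-type library only, and 4 of 11 lower by the plain ratio. Acta2, smooth muscle actin, was at 2.53 and 1.00 RPKM and Tagln at 1.49 and 0.828.

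Visceral endoderm genes, which encode carriers of lipids and vitamins in the yolk sac, had 2 of 9 members past the filter called lower, against 0.583% of all genes. None of the 9 lay above 0 and their median was -0.76, but 5 passed in the wild-type library only, and without a filter the median over 23 members was -0.19. By the plain ratio 9 of 18 were lower, against 5.56% of all genes with enough reads. The factor Foxa1 was the 1 higher member, at 2.08 (1.40 to 3.23). Apob, the scaffold of lipoproteins, stood at 10.3 RPKM in the wild-type and 4.21 in the KO culture (ratio 0.408, 0.395 to 0.422). Rbp4, the retinol carrier, was at 4.49 and 1.20 RPKM, Ttr, transthyretin, at 1.98 and 0.757, and Apoa1 at 1.89 and 0.764. Spink1 and Apoe were closer, at 5.30 and 4.32 and at 17.0 and 13.8. The endocytic receptor Cubn had a ratio of 0.176 (0.153 to 0.202), while its partner Lrp2 had 1.11 (1.06 to 1.17) and the factor Foxa2 had 0.881 (0.610 to 1.27). The factor Hnf4a had 0.451 (0.383 to 0.532). Epithelial genes such as Cldn6 (6.61 and 5.98 RPKM) and Cldn4 (5.34 and 6.59 RPKM) had a median of 0.00, or -0.13 after scaling, and none of 12 was called.

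Pluripotency genes were not called in either direction on the log2 ratio. Of 20 past the filter 16 lay above the median of all genes, with a median of 0.37, but 6 passed in the KO library only, Nanog and Zfp42 among them. Without a filter the median over 35 members was 0.23. Nanog stood at 5.89 RPKM in wild-type ESCs, 7.17 in KO ESCs, 0.842 in the wild-type culture and 1.76 in the KO culture, and Zfp42 at 9.20, 11.2, 0.837 and 2.02. Dppa5a was furthest apart, at 1.27 and 3.24 RPKM in the cultures. Not all followed: Pou5f1, the factor OCT4, was at 1.34 and 1.32 RPKM, Lin28a at 2.10 and 2.08 and L1td1 had a log2 ratio of -0.13. By the plain ratio 7 of 32 were higher and 0 lower, against 1.56% and 5.56% of all genes with enough reads. Among the 7 were Esrrb at 2.18 (2.02 to 2.35), Nr5a2 at 2.06 (1.92 to 2.20) and Fbxo15 at 2.86 (2.52 to 3.27).

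Genes of the primed epiblast had 0 of 6 called and a median of -0.38, with 3 of the 6 passing in the wild-type library only. Without a filter their median was -0.05 over 18, and 1 of 14 was lower by the plain ratio. Fgf5, its classical marker, was at 1.45 and 0.688 RPKM, the DNA methyltransferase Dnmt3b at 3.02 and 1.87 and Otx2 at 1.96 and 1.37, while Cer1, a signalling inhibitor, was at 2.36 and 2.68. Germline genes were all under 1 RPKM, and 4 of 7 with enough reads were higher by the plain ratio, against 1.56% of all genes. Among the 4 were Tex14 at 2.64 (2.39 to 2.91) and Stk31 at 3.70 (2.34 to 6.07). Of 10 trophoblast genes 4 were higher by the plain ratio (median 1.46), against 1.56% of all genes with enough reads. Peg10, described below, is one of them, and the others were Cdx2 at 2.84 (1.91 to 4.40), Tfap2c at 2.69 (2.11 to 3.43) and the placental gene Plac1 at 3.09 (2.75 to 3.47). Hox and neural crest lists had no member past the filter.

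Imprinted genes, which are expressed from 1 parental allele and many of which set fetal growth, contributed calls on both sides. Of 16 protein-coding members past the filter 3 were lower and 1 higher (median -0.28), against 0.583% and 0.269% of all protein-coding genes. Of 6 noncoding members 1 was higher and 0 lower (median -0.27), against 13.2% and 6.71% of all noncoding genes. Grb10, a growth-limiting adaptor of insulin signalling, stood at 3.55 RPKM in wild-type ESCs, 0.194 in KO ESCs, 7.05 in the wild-type culture and 0.380 in the KO culture. It was low in both KO libraries, and its ratio was 0.0538 (0.0508 to 0.0570) in the cultures. Cdkn1c, which encodes the cell cycle inhibitor p57, stood at 0.199, 0.0527, 2.50 and 0.0992 RPKM in that order, so the wild-type culture alone was high. Kcnq1ot1, the long noncoding RNA of the same domain, which silences Cdkn1c in cis, stood at 3.84, 8.43, 4.88 and 11.03 RPKM and was about 2-fold higher in both KO libraries. Zim1 was the third lower gene, at 2.64 and 0.818 RPKM in the cultures.

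Peg10, a retrotransposon-derived gene needed in the placenta, had the highest log2 ratio of the imprinted genes past the filter. It stood at 3.28 RPKM in wild-type ESCs, 3.86 in KO ESCs, 20.6 in the wild-type culture and 59.0 in the KO culture, a ratio of 2.87 (2.80 to 2.94). Its neighbour Sgce, which encodes a sarcoglycan, was at 0.875 and 2.47 RPKM in the cultures, a ratio of 2.82 (2.68 to 2.98), close to that of Peg10. The 2 genes abut on chromosome 6, at 4674350 to 4747204 for Sgce and 4747306 to 4760517 for Peg10. Plagl1, a zinc finger gene under the filter, had the largest ratio among imprinted genes with at least 50 estimated reads, 4.32 (3.71 to 5.07). The maternally expressed RNAs of the Dlk1 to Meg3 domain were lower in both KO libraries, Meg3 at 6.45, 3.34, 18.3 and 10.00 RPKM in the order above and Mirg at 3.97, 1.91, 7.42 and 4.80. Igf2, the fetal growth factor, was at 32.4 and 24.0 RPKM, H19 at 4.82 and 4.07, and the pair Igf2r and Airn at 4.64 and 2.85 and at 7.46 and 7.11.

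**Figure D4:**
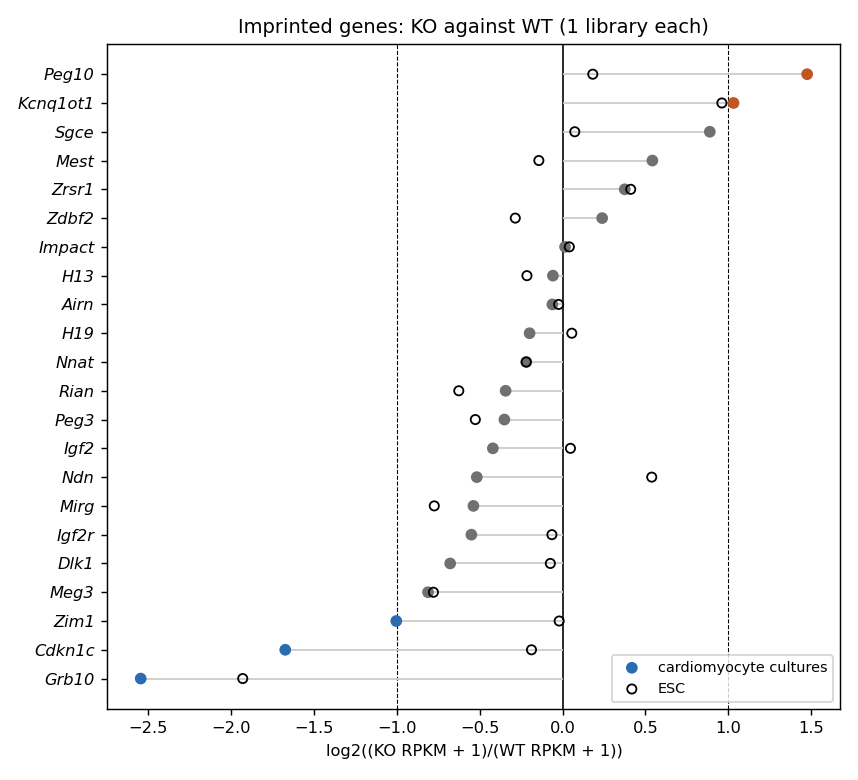
Log2 ratio of KO to WT RPKM (+1) of the 22 imprinted genes past the filter, in the cardiomyocyte cultures (filled points, blue and orange where called lower or higher) and in ESCs (open points), 1 library each; dashed lines mark a 2-fold difference. Kcnq1ot1 and Meg3 have nearly the same place in both cell types, Grb10 is low in both (-2.55 in the cultures and -1.93 in ESCs), and Peg10, Cdkn1c and Zim1 differ in the cultures and lie near 0 in ESCs.

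Outside these families the higher side was led by Myo3a, an unconventional myosin with a kinase domain. It stood at 3.63 RPKM in wild-type ESCs, 2.65 in KO ESCs, 2.24 in the wild-type culture and 9.09 in the KO culture, so the KO culture alone was high. Fzd10, a WNT receptor, was at 0.534 and 2.73 RPKM in the cultures. Other genes of WNT and BMP signalling had a median of 0.22 over 21, with 13 above the median of all genes and 0 called, and 0.06 after scaling. Rspo3, a WNT enhancer, was at 0.587 and 1.85 RPKM, Dkk1, a WNT inhibitor, at 0.983 and 1.90, and Bmp2 at 1.35 and 2.13.

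Both metallothioneins of the pair on chromosome 8, small proteins that bind zinc and copper, were higher. Mt2 stood at 14.1 RPKM in wild-type ESCs, 11.5 in KO ESCs, 3.47 in the wild-type culture and 12.1 in the KO culture, a ratio of 3.50 (2.79 to 4.43). Mt1 stood at 10.1, 8.98, 4.92 and 9.07 RPKM, a ratio of 1.84 (1.56 to 2.19). The wild-type culture was thus the low library of the 4 for both genes. Their promoter windows, 250 bases before to 50 after the start, are shown from RefSeq (GRCm38.p6, plus strand, chr8:94172368-94172667 and chr8:94178839-94179138). The pair is known for metal response elements, whose core is TGCRCNC (R is A or G). The pattern searched, TGCNCNC, is looser than this core. Matches on either strand are in capitals.
Mt2: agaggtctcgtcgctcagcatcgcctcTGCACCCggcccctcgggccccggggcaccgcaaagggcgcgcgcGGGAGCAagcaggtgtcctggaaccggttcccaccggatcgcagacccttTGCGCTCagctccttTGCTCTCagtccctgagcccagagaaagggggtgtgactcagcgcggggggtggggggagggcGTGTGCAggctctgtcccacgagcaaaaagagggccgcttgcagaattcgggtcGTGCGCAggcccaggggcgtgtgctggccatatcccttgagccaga
Mt1: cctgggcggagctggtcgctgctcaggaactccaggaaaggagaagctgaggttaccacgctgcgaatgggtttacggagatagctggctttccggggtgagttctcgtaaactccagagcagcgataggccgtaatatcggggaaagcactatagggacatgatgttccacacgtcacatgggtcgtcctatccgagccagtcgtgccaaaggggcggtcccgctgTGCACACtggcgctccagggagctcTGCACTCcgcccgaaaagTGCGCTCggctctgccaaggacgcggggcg
The Mt2 window holds 6 matches and the Mt1 window 3. At least 1 match occurs in 54.0% of 21263 windows of protein-coding genes, at least 3 in 8.27% and at least 6 in 0.268%. This motif was chosen after the values were seen, and a match is a run of letters, not a site shown to be bound.

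The other elements searched, each on both strands, were the core promoter element TATAAA, the blood and heart factor core AGATAA, the octamer ATGCAAAT, the AP-1 element TGACTCA, the cyclic AMP element TGACGTCA, the E-box element CACGTG, the hepatic element GTTAAT and the CArG box. TATAAA occurred in 8 of 22 windows of lower genes (36.4%), in 3 of 10 of higher genes (30.0%) and in 7.36% of the windows of all genes past the filter. The 8 lower genes were Actc1, Apob, C3ar1, Col3a1, Myh6, Postn, Ppbp and Rbp4, genes of muscle, matrix, endoderm and blood. The CArG box, the site of serum response factor, was found in 3 windows of lower genes (13.6%), those of Actc1, Mpeg1 and Ppbp, and in 1.29% of windows past the filter. AGATAA was in 4 windows of lower genes (18.2%, against 5.31%), those of C3ar1, Mpeg1, Pf4 and Slc8a1. It was in 9.65% of the windows of all protein-coding genes. TGACTCA was in 3 windows of lower (13.6%) and 2 of higher genes (20%), against 3.02% past the filter. CACGTG was in 0 and 1, against 11.3%, and TGACGTCA in 0 and 0, against 3.93%. ATGCAAAT and GTTAAT were each in 1 window of lower and 0 of higher genes, against 1.42% and 3.8%. The window sets are small, some genes have several windows, and TATAAA was in 12.6% of the windows of all protein-coding genes.

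Genes of growth lay a little above the background as whole families, with smaller medians after scaling. Of 73 cytosolic ribosomal protein genes 1 was called higher, Rps16 at 145 and 295 RPKM, against 0.269% of all protein-coding genes. Their median was 0.29, or 0.11 after scaling. Cell cycle genes had 26 of 31 above the median of all genes, and 3 of the 31 passed in the KO library only. Their median was 0.25, or 0.12 after scaling, and 0 were called. Among them were Mki67, the proliferation antigen, at 5.13 and 9.35 RPKM and Top2a at 5.02 and 8.44. Histone genes had 50 of 57 above the median of all genes, and 7 of the 57 passed in the KO library only. Their median was 0.39, or 0.22 after scaling, and 4 were called higher, against 0.269% of all protein-coding genes. The 4 were Hist1h3c at 4.38 and 9.80 RPKM, Hist1h4d at 9.34 and 20.5, Hist1h2ao at 0.850 and 2.86, and Hist1h2bn, listed in the KO culture only. Hist1h2ao held 14 and 47 estimated reads in the cultures, and Hist1h2bn 16 in the KO culture. Summed over all members, ribosomal protein genes were at 10397, 11315, 5643 and 7557 RPKM in wild-type ESCs, KO ESCs, wild-type culture and KO culture, and cell cycle genes at 124, 116, 65.4 and 89.0, so the KO culture lay between the wild-type culture and the ESCs. Histone genes summed to 257, 289, 234 and 336 RPKM, highest in the KO culture. Histone and ribosomal protein genes have near-identical copies and pseudogenes, so single values are uncertain.

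Ribosomal protein genes differed more where the gene holds a small nucleolar RNA (snoRNA), a guide of ribosomal RNA modification that is cut from an intron. By RefSeq coordinates 27 of the 73 hold one, with a median log2 ratio of 0.45, and 13 of them (48.1%) reached 0.5. The other 46 had a median of 0.21, and 2 (4.3%) reached 0.5. Among the remaining protein-coding genes 18 of 147 hosts (12.2%) and 120 of 4242 other genes (2.8%) did. Named hosts include Ipo7, an importin that holds Snora23, at 8.39 and 17.8 RPKM, Nop58, a protein of snoRNA particles, at 21.4 and 42.1, and Ncl, nucleolin, at 59.2 and 101. Whether reads of the snoRNA were counted for its host is not stated in the labels, and its part in these values was not tested.

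Noncoding hosts of snoRNAs went the same way. Of 13 past the filter 10 lay above the median of all genes (median 0.45). Zfas1, the only one called, stood at 1595 RPKM in wild-type ESCs, 1843 in KO ESCs, 889 in the wild-type culture and 1886 in the KO culture. Gas5 was at 1246 and 2266 RPKM in the cultures, Snhg8 at 502 and 973, and Snhg1 at 1408 and 2340. Snhg18, at 3.94 and 2.44, was the lowest. The wild-type culture was the low library of the 4 for Zfas1, Gas5, Snhg8 and Snhg1. Protein-coding, long noncoding, small nuclear and small nucleolar RNA took larger shares of the estimated reads in the KO culture, with long noncoding RNA at 3.63% and 4.96%. Pseudogenes took 8.52% and 5.73% and microRNA genes 0.252% and 0.138%. The fall of the microRNA share lies mostly in Mir6236, given below. It held most of the 20751 and 11545 RPKM summed over the microRNA list in the wild-type and KO culture.

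Noncoding genes were called far more often than protein-coding ones: 55 of 417 were higher (13.2%) and 28 lower (6.71%). After scaling the counts were 40 and 35. Many of these calls rested on few reads: with at least 20 estimated reads in either library 30 of 309 were higher and 17 lower. The 165 small nuclear RNA genes, many of them near-identical copies, gave 28 of the higher and 10 of the lower calls, or 15 and 5 with at least 20 reads. The 44 snoRNA genes gave 14 and 1, or 6 and 1 with at least 20 reads. By contrast the 101 long noncoding genes gave 5 and 2, at a median of 0.29. The microRNA genes were the class with more lower than higher calls, 15 and 8.

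The 5 higher long noncoding genes were Kcnq1ot1 and Zfas1, described above, Gm20716, B230208H11Rik and Gm11205. B230208H11Rik was at 6.77, 5.99, 13.2 and 49.3 RPKM in wild-type ESCs, KO ESCs, wild-type culture and KO culture, and Gm11205 at 22.6, 29.3, 33.5 and 132. Each overlaps an annotated tRNA gene. The lower ones were 5430431A17Rik, unlisted in the KO culture, and Dnm3os, at 2.61 and 0.710, the host of Mir199a-2 and Mir214 in mesenchyme. Neat1 and Malat1, the RNAs of nuclear bodies, were at 16.5 and 12.1 RPKM and at 647 and 559. Xist, under the filter, was at 0.0203, 0.0265, 0.0521 and 0.760 RPKM, so the KO culture alone had more than background, at an estimated 518 reads against 35. It overlaps its antisense partner Tsix, which was at 0.0426 and 0.0677 RPKM in the cultures, and without strand the 2 cannot be told apart.

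Several genes with calls cannot be read at face value. Adnp, a chromatin factor of neural development, was at 7.11 RPKM in the wild-type culture and unlisted in the other 3 libraries, while Gm20716, which overlaps it, was at 4.82 and 4.36 RPKM in the ESC libraries, 0.651 in the wild-type culture and 5.25 in the KO culture. The files thus give the locus to a different gene of the pair in the wild-type culture. The m6A lists do the reverse, with 18 positions for Gm20716 and 0 for Adnp in the wild-type list and 0 and 22 in the KO list. Cntf and Armcx5 were unlisted in both KO libraries, each near 1 RPKM in both wild-type ones, and each overlaps another gene. Of the 26 lower genes 5 and 1 of the 12 higher ones were listed in 1 culture only, so no fold is given for them.

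Some abundant features were lower in the KO culture but higher in KO than in wild-type ESCs. Lars2, a mitochondrial tRNA synthetase, stood at 46.0, 65.3, 73.9 and 37.5 RPKM in wild-type ESCs, KO ESCs, wild-type culture and KO culture. The same order held for Mir6236 at 13728, 19053, 19686 and 10428. In the cultures it made up most of the microRNA list, which summed to 20751 and 11545 RPKM. Lars2 and Mir6236 were chosen after their values were seen. The lysosomal protease gene Ctsb was at 0.971, 0.619, 3.98 and 1.18 RPKM, low in both KO libraries.

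Of the 26 lower genes 22 (84.6%) were under 1 RPKM in both ESC libraries, against 20.1% of all 4462 genes and 67.4% of the 270 that passed in the wild-type library only. On the log2 ratio 22 (84.6%) were at least 2-fold higher in the wild-type culture than in wild-type ESCs, against 4.06% and 15.9%. The 26 were chosen for being high in the wild-type culture and 17 passed the filter there only, so these shares are partly set by the choice. In ESCs 3 of the 26, against 5 of all 4462 genes, were also at least 2-fold lower in KO: Grb10, Cntf and Armcx5. Of the 12 higher genes 9 were lower in the wild-type culture than in wild-type ESCs, but so were 2794 of all 4462 genes. Of the 12, 1 gene, Grcc10, was also at least 2-fold higher in KO ESCs, against 4 of all 4462. It was at 61.6 and 146 RPKM in ESCs and at 37.6 and 80.4 in the cultures. The comparisons with ESCs share the wild-type culture library with the main comparison, so they are not independent of it.

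Accessibility was measured in other libraries of the same groups, 3 per genotype, by ATAC-seq, in which a transposase marks open chromatin. The share of each library's called intervals that lie in or within 5 kb of the 26 lower genes was 0.0824% ± 0.0060 (SD, n = 3) in wild-type and 0.0733% ± 0.0018 (SD, n = 3) in KO cultures. The 3 values were 0.0881%, 0.0761% and 0.0831% in wild-type and 0.0741%, 0.0746% and 0.0712% in KO libraries. The groups did not overlap, but the nearest values differed by less than the spread within the wild-type group. For the 12 higher genes the share was 0.0342% ± 0.0016 and 0.0414% ± 0.0004, again without overlap, but the groups overlapped once every library was cut to the same number of intervals.

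For genes within 2-fold the share was 18.6% ± 0.2 in wild-type and 19.8% ± 0.1 in KO libraries, so the lower genes went against this general shift. Intervals at fibroblast genes took 0.0903% ± 0.0052 and 0.0739% ± 0.0064, at macrophage genes 0.0700% ± 0.0069 and 0.0516% ± 0.0053, and at pluripotency genes 0.192% ± 0.009 and 0.239% ± 0.012, each without overlap. Visceral endoderm genes overlapped between the groups, at 0.105% ± 0.002 and 0.0989% ± 0.0063. Endothelial genes had 0.101% ± 0.004 and 0.0933% ± 0.0042, and these groups overlapped over gene bodies alone or with libraries cut to the same number. KO libraries had fewer intervals, 70132 to 76381 against 85443 to 94617. Of 18 gene sets 16 did not overlap, so a lack of overlap is common here, and 3 libraries against 3 cannot give an exact permutation p under 0.1.

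**Figure D5:**
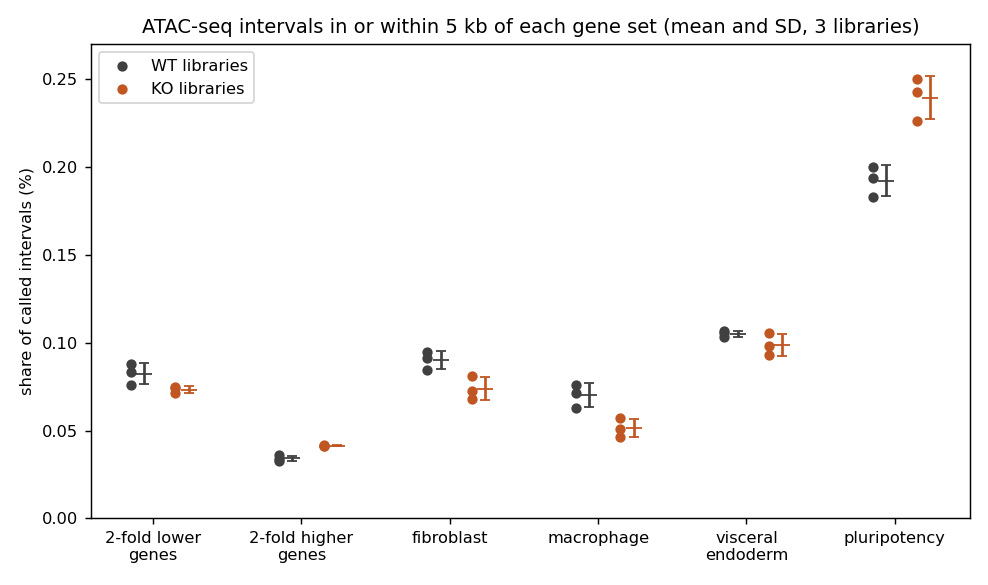
Share of each ATAC-seq library's called intervals, in percent, that lie in or within 5 kb of 6 gene sets, in cardiomyocyte cultures; points are libraries (3 WT, 3 KO) and bars beside them the mean and SD. KO libraries lie below WT at the 2-fold lower, fibroblast and macrophage genes and above WT at the 2-fold higher and pluripotency genes, and the groups overlap at visceral endoderm genes.

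The m6A lists, 1 per genotype, give positions per gene. The 26 lower genes held 356 of 25617 positions in the wild-type list (1.39%, 1.25% to 1.54% exact 95% interval) and 91 of 13962 in the KO list (0.652%, 0.525% to 0.7996%). Ttn alone had 151 and 1, and Grb10 59 and 0. Without these 2 genes the shares were 0.570% (0.481% to 0.670%) and 0.645% (0.519% to 0.792%), so the higher wild-type share rests largely on them. Of the 90 KO positions left, 22 lie on Adnp, which had 0 in the wild-type list. Its locus is given to different genes in the 2 lists, so the order of these 2 shares cannot be read. Apob had 35 and 27 positions and Zim1 25 and 7. The 12 higher genes held 25 positions in the wild-type list (0.0976%, 0.0632% to 0.144%) and 23 in the KO list (0.165%, 0.104% to 0.247%). Peg10 had 17 and 16 of these. Genes within 2-fold held 61.6% and 69.0% of the positions. The KO list is shorter, so the counts of single genes cannot be compared as shares. Kcnq1ot1 had 51 positions in the wild-type and 77 in the KO list, and Airn 130 and 86. Ttn and Grb10 were also among the genes with the lowest KO to WT ratios of RNA, and the part of RNA level in these numbers was not tested.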

How the data were processed

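Chromatin RNA was measured by sequencing in 4 libraries (ESC and cardiomyocyte culture, WT and Mettl3-KO). The authors deposited 1 RPKM value per gene, a unit taken from the name of the tables, which have no header; gene lengths, annotation, strand and the use of reads that map to several places are not stated there. ATAC-seq intervals came as deposited peak lists with, per peak, a score, a fold enrichment (ratio) and −log10 p and q values. Of these only the q was used, to rank intervals where libraries were cut to the same number, and none was compared between libraries. The m6A lists give positions within genes, as deposited by the authors. Tools named in the submitters' processing notes, without roles, are HISAT2, MACS2, Bowtie, cutadapt and Picard, and the build is mm10.

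The depth of each library was solved from the steps between low RPKM values, taking the RefSeq gene span as length. At that depth 54.4% to 56.7% of low genes gave whole reads within 0.05, so read numbers and their intervals are estimates. Symbols matched RefSeq (GRCm38.p6) for 99.5% to 99.6% of genes. A pseudocount of 1 RPKM was added before log2. Intervals are exact 95% Clopper-Pearson and, like all intervals here, cover counting error only. ATAC-seq shares count intervals overlapping a gene extended by 5 kb by at least 1 base; the 3 libraries per genotype may share a culture, so their spread may be technical. From the m6A lists 136 and 88 repeated positions were removed.

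The members and gene lists were chosen with earlier results of these data known. Named genes were the 15 highest and 15 lowest protein-coding and 8 and 8 noncoding genes listed in both files, called members of each list (otherwise its most abundant), and Mettl3; other genes named were chosen after their values were seen. The plain ratio, the minimum of 20 reads, the m6A shares without Ttn and Grb10 and the TGCNCNC motif were added after seeing the data. Some items are not reported here. The steps were tested on simulated data. Tools were Python 3.11.15, numpy 2.4.6, pandas 2.3.3, scipy 1.17.1 and matplotlib 3.10.9.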

Additional observations from a re-analysis of the deposited data

Results flagged for a closer look

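2 small nuclear RNA genes differed at least 2-fold in opposite directions between KO and WT in the cardiomyocyte cultures and in ESCs. Gm24168 had a log2 ratio of -1.10 in the cultures and 1.33 in ESCs, from 6.68 RPKM in wild-type ESCs, 18.3 in KO ESCs, 16.5 in the wild-type culture and 7.20 in the KO culture. Gm25587 had -1.30 and 1.86, from 31.0, 116, 75.2 and 29.9 RPKM. The difference between the cell types was not tested, with 1 library each. Both genes belong to a family with near-identical copies, so reads could be split among them.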

How the results depend on the processing

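With 1 chromatin RNA library per group, depth limits low genes and no replicate error can be given. Protein-coding genes called higher numbered 12, and 40 with a pseudocount of 0.1 RPKM, 4 after scaling and 187 by the plain ratio. Those called lower numbered 26, and 46 with the smaller pseudocount, 17 at 2 RPKM or more, 13 with the filter on the mean of 4 libraries (which takes out genes low in ESCs) and 667 by the plain ratio. Noncoding genes called higher numbered 55, and 29 without overlapping genes and 30 with at least 20 reads. Those called lower numbered 28, and 14 when listed in both files, 15 without overlapping genes and 17 with at least 20 reads. After scaling, 33 of 46 list medians stayed within the rank interval of the median over members and 13 left it. The interferon median of 0.45 became -0.16 with no filter. For ATAC-seq the KO minus WT share at the higher genes was 0.00724 percentage points, 0.00502 over gene bodies and 0.00285 with equal numbers of intervals, and 0.00652 to 0.00809 leaving out a library. At genes within 2-fold it was 1.26, then 0.942 and 0.745, and 1.13 to 1.33. At the lower genes it ran from -0.0122 to -0.00627 leaving out a library. The m6A share at the lower genes, -0.738, became 0.00481 when genes with a position were counted. It became 0.075 without Ttn and Grb10, a value that still includes the 22 KO positions of Adnp. At genes within 2-fold it went from 7.36 to 9.16. The cause of these shifts was not tested. No paired analysis was possible because chromatin RNA has 1 library per group and no result comes from a test. The m6A alternative with 5 kb around genes was not run, as positions are given per gene.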
